A study of Sorghum bicolor with 4 samples.

Results

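Tight runs of SbGhd7 peaks were defined as groups of 3 or more peaks on a chromosome in which each summit lay 2000 bp or less from the next. The deposited list held 40087 peaks, of which 35541 lay on the 10 chromosomes. Of these, 15230 belonged to 3171 tight runs, which is 42.9% of the chromosome peaks and 38.0% of the whole list. A further 6858 chromosome peaks stood in 3429 runs of 2, and 13453 had no neighbour within 2000 bp. By number, fold and pileup, the limit was close to arbitrary for the peaks around it. Gaps of over 1900 and up to 2000 bp joined 457 pairs of neighbours, and gaps of over 2000 and up to 2100 bp separated 448. The peaks that closed these gaps had a median fold of 3.74 just inside the limit and 3.81 just outside it, with a median pileup of 12 and 13 fragments. Their median width was 221 bp just inside and 251.5 bp just outside.

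The study mapped the binding of SbGhd7 in mesophyll protoplasts of Sorghum bicolor, which are leaf cells freed of their walls, after transient expression of the protein overnight at 24 °C. Chromatin fixed with 1% formaldehyde was either kept as input, with no antibody, or precipitated through the Myc tag (IP), with 2 samples in each of the 2 groups. Both groups came from cells that expressed SbGhd7, and no label describes protoplasts without it. Expression was transient and in isolated cells, and the labels give no cultivar, age or promoter.

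SbGhd7 belongs to the plant proteins with a CCT domain, a family that takes part in the timing of flowering by day length. In sorghum and in its rice counterpart, Ghd7 delays flowering in long days by lowering the expression of activators that act upstream of the mobile flowering signal. CCT proteins can contact DNA together with NF-Y subunits, which are general plant DNA-binding factors. A narrow peak list has an entry for each enriched stretch, so enriched stretches parted by a bare interval are entered separately, whether they lie near each other or far apart. How entries gather along a chromosome is therefore a property that no single entry shows.

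The list carries 1 set of values for all libraries, so no spread between replicates can be set beside any value below. Fold is the authors' own value for each peak, the ratio of IP signal to the local background under its summit. Pileup (IP fragments over the summit) and background (fragments expected there) were recovered from the deposited fold and p-value. The members were chosen by their positions in the same list from which all their values come, so the values are descriptions and carry no test. Counting intervals on a pileup or fold are exact Poisson intervals at 95% with the background held fixed. They cover counting error only. The sample records give 50 to 100 pg of DNA and 18 PCR cycles for all 4 samples. How far copies of the same fragment add to a pileup was not tested.

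Tight runs were far more numerous than independent placement at the local density gives. As a yardstick, the number of runs was calculated in closed form for peaks that fall independently of each other at the density of their own 1 Mb window. This gives 581.4 runs of 3 or more, against 3171 in the list, a ratio of 5.45. It gives 1877 peaks in such runs, or 5.28% of chromosome peaks, against 15230. The gap widened with the size of the run. Runs of 5 or more numbered 1197 against 21.6 from the yardstick, runs of 7 or more 562 against 1.44, and runs of 10 or more 214 against 0.0481. Runs of 2, by contrast, numbered 3429 against 3278, and peaks alone 13453 against 27109. The list thus held fewer lone peaks and many more large groups than the yardstick, and nearly the same number of pairs. The ratio of 5.45 depends on the window. It was 2.61 with windows of 0.1 Mb and 9.92 with the mean density of each chromosome.

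**Figure D1:**
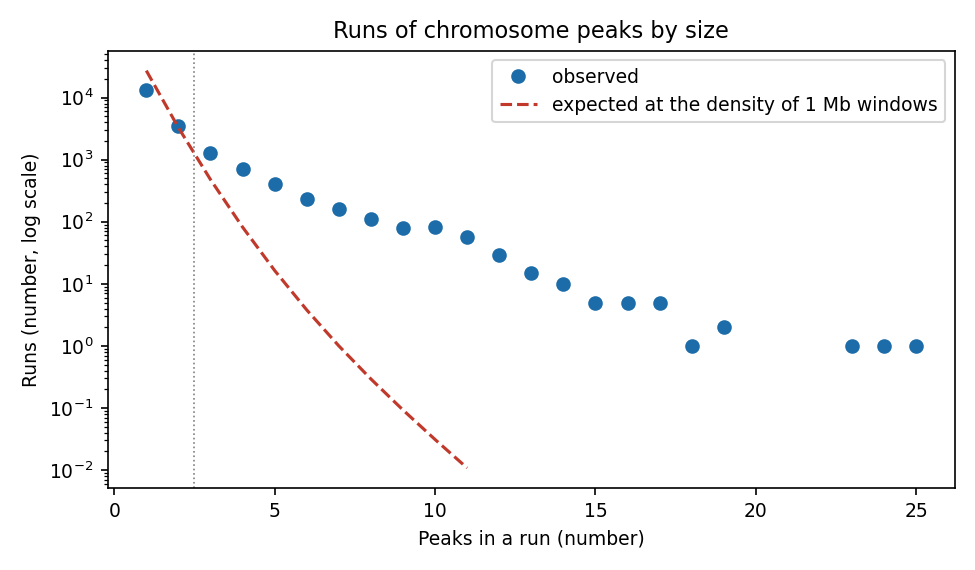
Number of runs (log scale) by the number of peaks in a run, on the 10 chromosomes. Points are the deposited list, the dashed line is the closed-form expectation for independent peaks at the density of their 1 Mb window, and the dotted line marks the limit of 3 peaks. The points lie below the line at 1 peak (13453 against 27109), close to it at 2 peaks and above it from 3 peaks on. There were 82 runs of 10 peaks where 0.0311 were expected.

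The number of runs did not fall evenly with size. There were 1274 runs of 3 peaks, 700 of 4, 401 of 5, 234 of 6, 161 of 7, 109 of 8 and 78 of 9. The fall paused there, with 82 runs of 10 and 57 of 11, before 29 runs of 12 and 15 of 13. The pause is a difference of 4 runs and is given as a count only. The largest run held 25 peaks. From summit to summit the runs were 665 to 23987 bp long, with a median of 3045 bp and quartiles of 2152 and 4692 bp. Most were short, but 353 were 7000 bp or longer, 69 were 10000 bp or longer and 12 were 15000 bp or longer. By span in steps of 1000 bp, 900 runs reached from 2000 to 3000 bp and fewer in each step up to 127 runs of 6000 to 7000 bp. There were then 117 runs of 7000 to 8000 bp and 110 of 8000 to 9000 bp, followed by 57 of 9000 to 10000 bp and 27 of 10000 to 11000 bp. Runs of 6 to 9 kb were thus nearly level in number, and longer ones were scarce.

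A similar reach appeared when all pairs of chromosome peaks were counted by distance, whether or not they belonged to a run. At 500 to 1000 bp the list held 6801 pairs, 5.30 times the mean of 1284 pairs per bin of 500 bp at distances of 30 to 40 kb. The ratio was 4.31 at 2000 to 2500 bp, just beyond the joining limit, 3.07 at 5000 bp and 1.52 at 10000 bp. It first fell below 2 at 8.5 kb and below 1.2 at 13 kb. Gathering of peaks therefore reached well beyond the 2 kb that defines a run, and had nearly levelled off by 13 kb. The bin under 500 bp held 1997 pairs. No neighbouring summits on the chromosomes were closer than 179 bp, and neighbouring peaks in a run were parted by at least 136 bp and by a median of 580 bp.

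**Figure D2:**
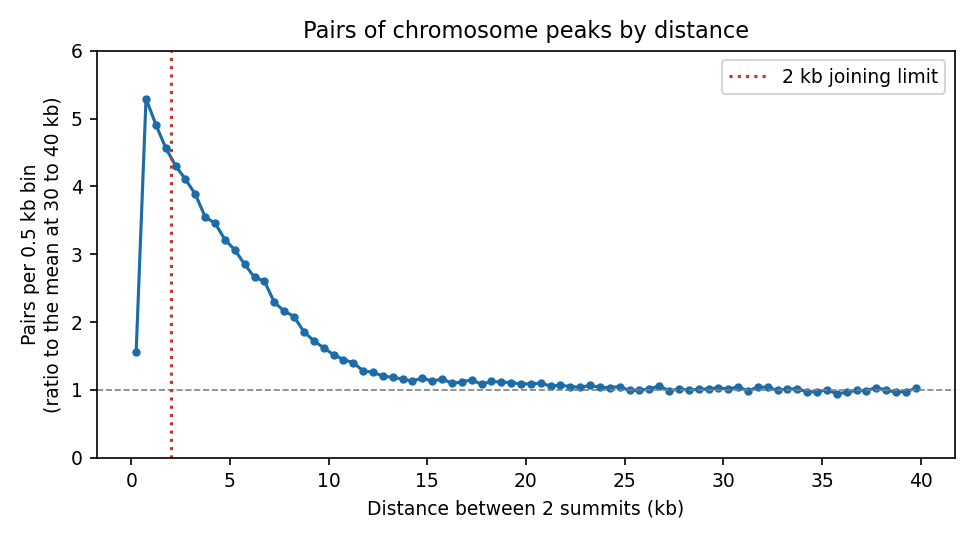
Pairs of chromosome peaks by the distance between their summits, in bins of 500 bp, divided by the mean count at 30 to 40 kb. The dotted line marks the 2 kb limit that joins peaks into runs. The ratio falls from 5.30 in the second bin through 2.08 at 8 kb to below 1.2 from 13 kb, with no step at 2 kb.

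Inside the runs spacings were spread over a broad range. The 12059 distances between neighbouring summits had a median of 921 bp and quartiles of 627 and 1328 bp, and 5.03% were under 400 bp. They rose to a broad top between 400 and 900 bp, which held 43.6% of them, and fell slowly after it. The fullest bin of 50 bp, 500 to 550 bp, held 589 spacings, or 4.88%, and its neighbours 521 and 561. The 3429 pairs had nearly the same profile, with a median of 980 bp and 40.3% at 400 to 900 bp. The upper end at 2000 bp is set by the rule. The lower end may be limited by the list itself, since summits are entered separately only where a bare interval parts their peaks. The smallest such interval in a run was 136 bp, and the smallest spacing 179 bp. The sample records give a size range of 200 to 500 bp for the libraries. How far these limits shape the rise at short spacings was not tested, so the broad top is not read as a preferred spacing. The most frequent exact distances were 505 bp and 660 bp, with 22 spacings each. In the 50 bp to either side of them a distance occurred 11.3 times on average. Successive spacings in a run were nearly unrelated, with a Spearman rho of 0.0214 over 8888 successive pairs of spacings. That value is a description across spacings that share runs.

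**Figure D3:**
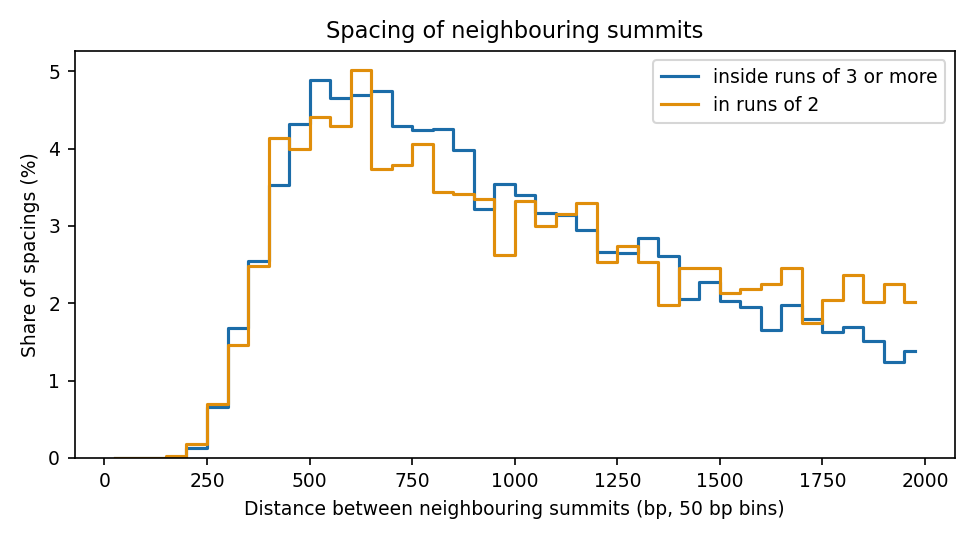
Share of the distances between neighbouring summits in bins of 50 bp, for 12059 spacings inside runs of 3 or more and for 3429 runs of 2. Both curves rise from about 200 bp to a broad top between 400 and 900 bp. They fall towards the 2000 bp limit, with no narrow spike in either. The rise at the left may be limited by the bare interval needed between separate entries, which was not tested.

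An arrangement repeated with summits at nearly the same bases would appear as chains of spacings shared by different runs. All chains of 2, 3 and 4 successive spacings were therefore compared between runs. Among 8888 chains of 2 spacings, 2081 pairs of chains from different runs matched within 5 bp at both spacings. If successive spacings were independent of each other, 2162 pairs would match, a ratio of 0.963. Among 5717 chains of 3 spacings, 7 pairs matched where 7.09 were expected, and among 3820 chains of 4 no pair matched where 0.0264 were expected. Read in the opposite direction, 2191 pairs of chains of 2 spacings matched, and 6 pairs of chains of 3. With a tolerance of 10 bp, chains of 3 spacings matched in 71 pairs against 49.4 expected, a ratio of 1.44, and 1 pair of chains of 4 matched against 0.353. The chains that matched most runs were 652 and 664 bp, 655 and 663 bp, 654 and 663 bp, 808 and 704 bp, and 805 and 702 bp, each found in 6 runs. These are 2 arrangements, written 3 times and 2 times with small shifts. Among the 7 matches of 3 spacings, a run on chromosome 1 that starts at 40453095 had 721, 660 and 670 bp where a run on chromosome 6 that starts at 24950832 had 718, 663 and 671 bp. In another, 2 runs of chromosome 1, starting at 18339413 and 36766162, had 1008, 403 and 783 bp and 1008, 398 and 788 bp. At a tolerance of 5 bp, matches of 2 and of 3 spacings were thus no more frequent than independent spacings give. How exactly a summit is placed at the median pileup of 13 fragments is not known. An arrangement repeated with larger shifts of its summits would be missed, so no conclusion on repeated arrangements is drawn.

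The 11 runs with 17 or more peaks lay on 8 chromosomes, and the 10 drawn in the plot of the largest runs are these without the longest of the 5 that tie at 17 peaks. The largest was on chromosome 9 at 33075016 to 33099199, with 25 peaks over 23987 bp. Its folds ranged from 2.48 to 5.76 with a median of 3.79, and its pileups from 8 to 19 over backgrounds of 1.71 to 3.83. A pileup of 8 to 19 is ordinary for the list, so the run stood out by number and not by height. The run on chromosome 5 at 52380047 to 52400150 had 24 peaks over 19404 bp. Its background was higher throughout, at 8.65 to 22.0 fragments, with pileups of 26 to 62 and folds of 2.05 to 4.18. The run on chromosome 7 at 31129285 to 31151878 had 23 peaks over 22220 bp, with folds of 2.89 to 5.20. These 3 runs had mean spacings of 999.5, 843.7 and 1010 bp, where all runs had a median of 994.4 bp and a first quartile of 842.6 bp. The run on chromosome 5 thus had both the highest background and the smallest mean spacing of the 3.

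Chromosome 1 held 2 runs of 19 peaks. That at 35885145 to 35900238 was 14830 bp long and reached a fold of 7.90, the highest of these 11 runs. That at 16553840 to 16572470 was 18337 bp long and reached 5.94. The run on chromosome 10 at 28954320 to 28969619 had 18 peaks over 15035 bp, at a median background of 5.48. Runs of 17 peaks lay on chromosome 6 (21757784 to 21773165, highest fold 5.54), on chromosome 4 (47187234 to 47203537, highest fold 6.45) and at 2 places on chromosome 8. The latter were 12701562 to 12719110, with a highest fold of 5.96, and 24338238 to 24355887, with 5.85. The fifth, on chromosome 1 (38051979 to 38070318, highest fold 5.56), was the longest of them at 17667 bp. The largest runs of the remaining chromosomes were 16 peaks on chromosome 2 at 45103087 to 45118108 and 14 peaks on chromosome 3 at 34277762 to 34291355. In none of these 13 runs did the peaks cover more than 53.8% of the run from its first start to its last end.

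**Figure D4:**
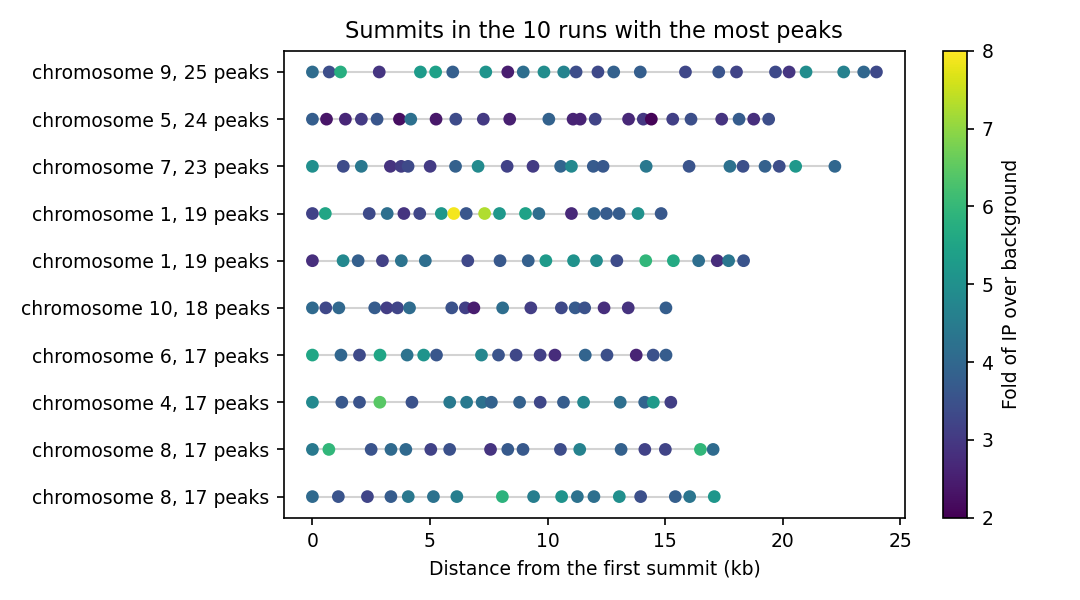
Summits of the 10 runs with the most peaks (of 5 tied at 17 peaks, the 4 shorter), placed by distance from the first summit in kb and coloured by fold. Each row is a run, from 25 peaks on chromosome 9 at the top to 17 peaks on chromosome 8 at the bottom. Summits are spread along the whole length of each run, and high folds, up to 7.90 on chromosome 1, are scattered between low ones.

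The tightest and the most even runs were small. Both rankings favour small runs, since extreme values are reached more easily with few spacings. Among runs of 4 or more, the smallest mean spacing was 399 bp, on chromosome 2 at 11292231 to 11293626, where 4 summits followed each other at 543, 280 and 374 bp with folds of 3.25, 3.57, 4.59 and 4.19. The next 4 mean spacings were 426.7 bp (chromosome 3, 36815691 to 36817289), 439.5 bp (chromosome 2, 20772680 to 20774603), 444 bp (chromosome 5, 26675855 to 26677411) and 447 bp (chromosome 1, 38526493 to 38528343). All 5 had peaks of 8 to 16 fragments, and their lower ends of the counting interval on the fold were between 1.43 and 3.38. Over all 1197 runs of 5 or more, the coefficient of variation of the spacings had a median of 0.428 and quartiles of 0.348 and 0.520. The most even run, on chromosome 1 at 36618320 to 36624022, had a coefficient of 0.0642, with 5 summits at steps of 1342, 1526, 1331 and 1388 bp. On the same chromosome, the run at 40453095 to 40456321 had steps of 721, 660, 670 and 763 bp and a coefficient of 0.068. The other 3 had mean spacings of 1349 bp (chromosome 7, 42547048 to 42552680), 1625 bp (chromosome 6, 48986075 to 48993181) and 1246 bp (chromosome 6, 9039128 to 9046933). The 5 most even runs thus had 5 different steps, from 703.5 to 1625 bp.

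Member peaks had a slightly higher median fold and a larger median width than the rest. Their median fold was 3.84, with quartiles of 3.37 and 4.41, against 3.72 for peaks in runs of 2 and 3.64 for peaks alone. The median pileup was 13 fragments in runs of 3 or more, 12 in runs of 2 and 11 alone, and the median background 2.41, 2.30 and 2.27 fragments. A pileup of 13 has a counting interval of 6.92 to 22.2, so single peaks of these classes cannot be told apart. The median width was 252 bp in runs, 220 bp in runs of 2 and 200 bp alone. It rose with run size, from 231 bp in runs of 3 to 249 bp in runs of 4 to 6, 270 bp in runs of 7 to 9 and 281 bp in runs of 10 or more. Width also rises with pileup, so it was compared at a background of 2 to 2.5. At pileups of 10 or 11 it was 207 bp for 2008 members and 191 bp for 3550 other peaks. At 14 to 16 it was 345 bp for 1391 members and 267 bp for 1227 others, and at 17 to 20 it was 419.5 bp for 352 members and 311 bp for 276 others. Runs held 341 of the 454 chromosome peaks of 900 bp or more, or 75.1%, against 42.9% of all chromosome peaks.

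The share of peaks that belonged to runs rose with their strength and then dropped sharply at the top of the list. Of the 3744 peaks whose fold was under 3, 36.8% (95% interval 35.2 to 38.4) were in runs, and of the 18731 peaks between 3 and 4, 39.6% (38.9 to 40.3). The share was 48.2% (47.3 to 49.2) between 4 and 5 and 53.2% (51.2 to 55.2) between 5 and 6. It stayed near that level between 6 and 7, with 53.7% (48.6 to 58.8), and between 7 and 8, with 51.6% (38.6 to 64.5). From 8 upwards, 5 of 46 peaks were in runs, or 10.9% (3.63 to 23.6). These exact binomial intervals treat peaks as independent. Peaks of a run share their membership by definition, so the intervals are likely too narrow. The yardstick was not level either. It gave 5.15% to 5.82% in the classes below a fold of 7, 4.23% between 7 and 8 and 1.92% from 8 upwards. Folds of at least 8 made up 0.129% of all chromosome peaks and 0.0328% of the members. Folds of at least 5 were found at 1583 members, or 10.4%, against 8.47% of all chromosome peaks. By the authors' deposited table, a total of 3591 members, or 23.6%, had a −log10 q of at least 5, against 18.3% of all chromosome peaks. Since the rule and these values come from the same list, nothing further is read from these shares. Among peaks with a background under 5, the share in runs was 28.8% at pileups up to 9, 36.9% at 10 or 11, 51.9% at 14 to 16 and 59.8% at 17 to 20. It was 38.6%, or 22 of 57 peaks, at pileups of 30 or more. The yardstick gave between 4.29% and 9.35% for all pileup classes.

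**Figure D5:**
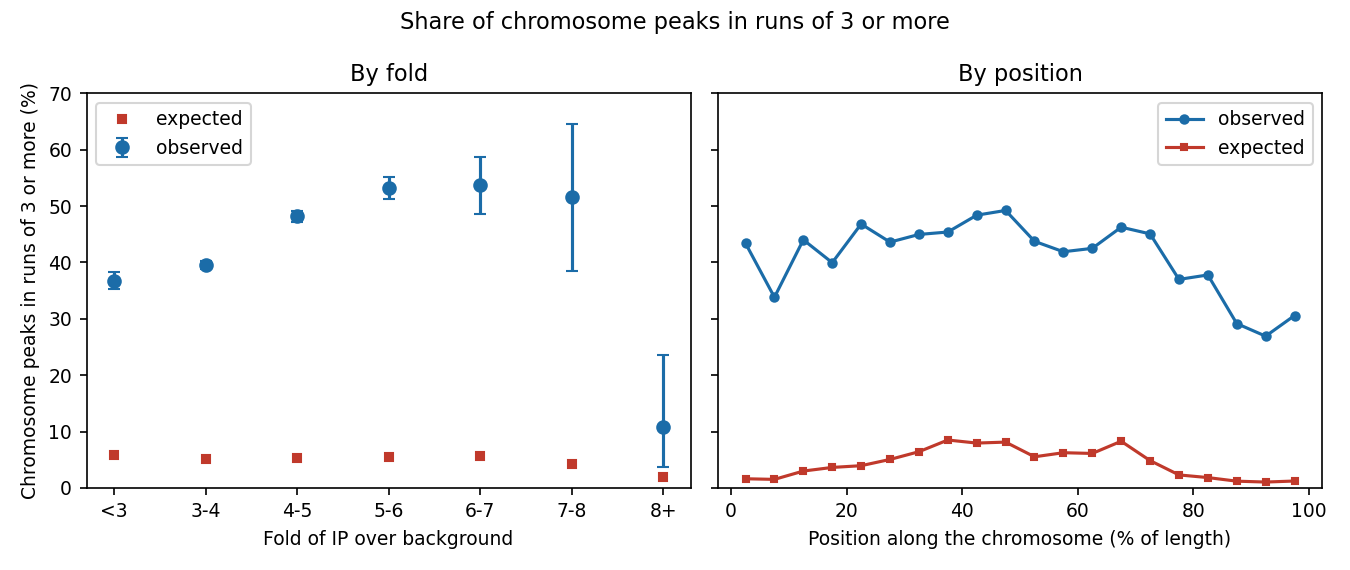
Share of chromosome peaks that belong to runs of 3 or more, by fold (left, with exact binomial intervals at 95%) and by position along the chromosome in bins of 5% of its length (right), with the closed-form expectation in red. By fold the share climbs from 36.8% to 53.7% and drops to 10.9% from a fold of 8 upwards. The intervals treat peaks as independent, although peaks of a run share their membership. By position it is highest, at 49.2%, just before the middle and lowest, at 26.9%, near the far end.

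The 5 members whose fold was at least 8 belonged to 5 different runs. The strongest was the last of 7 peaks on chromosome 2 at 1858539 to 1866680. The folds along this run were 3.12, 3.54, 5.42, 3.13, 3.44, 4.68 and 14.7. The last value rested on 46 fragments and had a counting interval of 10.9 to 19.6, above the interval of each of the other 6. On chromosome 10 at 11097121 to 11099487, a run of 3 peaks had folds of 12.3, 4.85 and 7.49 on 37, 15 and 22 fragments. All 3 were above the median of the members, although the interval of the middle peak, 2.85 to 7.80, included that median. In the other 3 runs the highest fold was 8.68 as the first of 7 peaks on chromosome 7 at 50644816 to 50652695. It was 8.11 as the fourth of 13 peaks on chromosome 5 at 57061755 to 57072365, where another peak had 7.32, and 8.05 as the third of 5 peaks on chromosome 1 at 47503319 to 47508648. Every peak reached a fold of 4 in 134 of 3171 runs and a fold of 5 in 3, while 1167 runs had at least 1 peak at a fold of 5 or more. Single members reached a fold of 5 in 10.4% of cases, against 8.47% of all chromosome peaks, and their median was 3.84. What folds scattered over the runs would give was not computed, so the counts are not read as a trait of runs.

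Most of the variation in fold and width was found among the peaks of the same run, while background was largely shared by them. Of the variance of the logarithm, 8.28% lay between runs for fold and 6.62% for width, against 79.3% for background and 59.2% for pileup. The background is a local value, so summits that lie close together may share it by the way it is computed. A called peak must exceed it, so pileup may follow. Counting error adds to the variation in fold within a run. How much each of these contributes was not tested. In the median run, the highest fold was 1.48 times the lowest and the widest peak 2.61 times the narrowest. Values differed little by place in the run. In runs of 7 or more, the first and last peaks had a median fold of 3.95, the next ones in from each end 3.94 and the inner ones 3.86. The median background was 2.37, 2.41 and 2.51 and the median width 275, 275.5 and 275 bp in the same order.

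A small number of runs stood on a very high background. A background of 50 or more was found at 36 chromosome peaks, and 12 of these were members, or 33.3%, where 42.9% of all chromosome peaks were members. Backgrounds of 50 or more were thus no more frequent in runs than outside them. Lower cuts went the other way. A background of 5 or more was found at 5.24% of members and 2.66% of other chromosome peaks. For 10 or more the shares were 1.32% and 0.748%. The highest median, 141.8 fragments, belonged to the first 4 peaks of chromosome 4, at 15 to 3661, whose pileups were 615, 250, 917 and 1271 and whose folds were 3.77, 3.98, 7.52 and 5.28. The run on chromosome 10 at 29120676 to 29123656 had pileups of 186, 65 and 201 and low folds of 2.14, 2.71 and 2.62. It was followed by 3112417 bp without a peak. On chromosome 1, the run at 32815267 to 32819271 had a median background of 55.3. The run at 31756480 to 31764223 climbed along its 7 summits, from a background of 8.11 at the first, through 27.9 at the fourth, to 71.5 at the last. Chromosome 2 began with a run of 6 peaks at 82 to 6498, with a median background of 20.2 and folds of 2.48 to 3.40. Runs at the first bases of chromosomes 2 and 4 thus both had many fragments, with folds of up to 3.40 on chromosome 2 and up to 7.52 on chromosome 4.

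Runs were found on every chromosome at similar frequency. There were 4.64 ± 0.540 runs per Mb (SD, n = 10 chromosomes), from 3.79 on chromosome 4 to 5.33 on chromosome 7. The share of peaks in runs was 37.5% on chromosome 10, the lowest, and 46.6% on chromosome 7, the highest. On each of the 10 chromosomes the observed number of runs exceeded the yardstick, by 4.53 times on chromosome 6 up to 7.72 times on chromosome 4. Chromosome 6, which carries the SbGhd7 gene, had 1243 members in 258 runs, or 40.9% of its peaks. Runs of 10 or more peaks were counted 31 times on chromosome 1, 30 times on chromosome 2, 29 times on chromosome 5 and 9 times on chromosome 3. The median fold of the members varied only from 3.78 to 3.90 between chromosomes.

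Along the chromosomes, runs were denser in the middle. In the middle 50% of the length there were 6.25 ± 0.641 runs per Mb (SD, n = 10), and in the outer regions (the first and last 25%) 3.02 ± 0.644, with more in the middle on 10 of 10 chromosomes. The share of peaks in runs was 45.2% in the middle and 38.5% in the outer regions, and it was also higher in the middle on all 10. The yardstick gave 6.81% and 2.41%, so the observed share exceeded it by 38.4 percentage points in the middle and 36.1 outside. As a ratio, this is 6.64 and 15.96. The outer regions were not alike. In the first 25% of the length, 3071 of 7266 peaks were members, or 42.3%, and in the last 25%, 1685 of 5098, or 33.1%. The yardstick gave 2.98% and 1.60%. The centre lay in the middle region for 66.8% of the runs of 3 to 6, 69.8% of the runs of 7 to 9 and 74.8% of the 214 runs of 10 or more. Within 1 Mb of a chromosome end, 292 of 703 peaks were members, or 41.5%, and at 1 to 10 Mb from an end 1898 of 5435, or 34.9%. For these the yardstick was 2.26% and 1.73%. Within 1 Mb of the 7 stretches of over 1 Mb without a peak, 725 of 1485 were members, or 48.8%. There the yardstick was also higher, at 10.7%.

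Windows of 1 Mb were also grouped by their number of peaks. In windows with up to 25 peaks per Mb, 445 of 2093 peaks were in runs, or 21.3%, where the yardstick gave 0.444%. In windows with over 50 to 75 it was 42.6% against 3.89%, and in windows with over 100 it was 55.1% against 13.5%. From the sparsest to the densest windows, the observed share exceeded the yardstick by 20.8 and 41.6 percentage points, which as a ratio is 47.9 and 4.08. Runs in excess of the yardstick were therefore present at every density, and even the sparsest windows held 111 runs, with up to 10 peaks in a run. The distance from the end of a run to the next peak outside it had a median of 6364 bp. In 26.1% of cases it was 3000 bp or less. All run extents together, from first start to last end, came to 13.1 Mb, or 1.91% of the chromosome lengths, with 42.9% of the chromosome peaks.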

How the data were processed

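The 2 input and 2 anti-Myc IP samples reached GEO as 1 list of narrow peaks with 10 columns and no header. Per the submitters' processing notes, BWA (0.7.17.2) and MACS2 (2.2.7.1) were used. How they were set, on which genome build, and whether replicates were pooled is not given in the sources used here, and the depth of each library is unknown. All positions are 1-based, in the coordinates of the list. The authors deposited a fold ratio in column 7, the −log10 of a p-value and of a q-value in columns 8 and 9, and a score, not used here, in column 5. A whole-number pileup was recovered for all 40087 peaks from fold and p-value, as MACS2 is known to compute them (fold with 1 added above and below), within a relative tolerance of 2e-05.

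Runs joined neighbouring summits up to 2000 bp apart. The expected number of runs was computed from 1 − exp(−density × 2000) per peak, with the density of its 1 Mb window, which includes the peak itself and its run. Expected matches of chains multiply the share of matching spacings at each place. Chromosome length is the end of the last peak, a lower bound. Runs named in the text are those with the most peaks overall (10) and per chromosome, the smallest mean spacing (5), the most even spacing (5), the highest fold (5) and the highest median background (5). Ties went to the shorter run, and the fifth run of 17 peaks was added after its values were seen. Members, definitions and alternatives were chosen with earlier results of these data known. The computations were checked on simulated data. No genome sequence of a named build was used, so no genes, motifs or sequences are given. The software was scipy 1.17.1, numpy 2.4.6, pandas 2.3.3 and, for plots, matplotlib 3.10.9, under Python 3.11.15.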

Additional observations from a re-analysis of the deposited data

How the results depend on the processing

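No paired analysis was possible because the peak list carries a single value for all libraries. Leaving out a replicate was likewise not possible. The number of runs, 3171, was 1708 with summits joined at 1000 bp, 1897 for runs of 4 or more and 249 with only the peaks whose −log10 q was at least 5, and moved by less than 1.5 times under 5 other settings. The share of chromosome peaks in runs, 42.9%, was 17.7%, 55.0% and 66.6% with summits joined at 1000, 3000 and 5000 bp. It was 13.9% and 40.7% with a −log10 q of at least 5 and at least 2, 41.6% with a background under 5, 47.3% with gaps taken between peak edges and 32.1% for runs of 4 or more. The ratio of observed to expected runs, 5.45, stayed above 1 under all 12 alternatives. It was 9.60, 3.35 and 1.90 at 1000, 3000 and 5000 bp, 15.1 and 6.41 with a −log10 q of at least 5 and 2, 6.14 with a background under 5 and 18.3 for runs of 4 or more. With windows of 0.1, 0.5 and 5 Mb and with whole chromosomes it was 2.61, 4.73, 6.83 and 9.92, and with the smallest distance seen as a minimum distance 6.17. No expected number was computed for gaps between edges. The median fold of the members, 3.84, ranged over 3.81 (1000 bp), 3.82 (3000 bp), 3.94 (−log10 q of at least 2), 3.86 (background under 5) and 3.86 (runs of 4 or more), and stayed above that of the other peaks each time. The median width, 252 bp, was 247 bp at 1000 and at 3000 bp, 265 bp with a −log10 q of at least 2 and 260 bp for runs of 4 or more. The median background, 2.41, was 2.39 at 3000 bp and 2.33 with a background under 5. The share of members in the outer regions (first and last 25%), 31.2%, was 29.8% at 1000 bp, 32.6% with a background under 5 and 30.5% for runs of 4 or more. It was 8.40% in the outer 10% and 22.1% in the outer 20% at each end, against 12.1% and 28.3% of the other chromosome peaks. With distances between peak midpoints, the centre of the fullest bin of spacings moved from 525 to 625 bp, and the ratio of observed to expected matching chains of 2 spacings from 0.963 to 1.01. Other settings moved a value by less than its counting interval, or the fullest bin by at most its width of 50 bp. Joining distance, threshold and window size move these values by construction. For the medians the cause was not tested. The small pileups, with a median of 13 fragments, limit what can be said of any single peak in a run.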

Other observations

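The same rule applied to the unplaced scaffolds, which the definition of the runs above leaves out, gave 499 runs of 3 or more with 2475 of 4546 scaffold peaks, or 54.4%. They lay on 115 of the 354 scaffolds with a peak, and the largest had 26 peaks. The median spacing was 919 bp, against 921 bp on the chromosomes, the median fold 3.47 and the median background 5.37 fragments. No yardstick was computed for the scaffolds, so their share of peaks in runs is not compared with that on the chromosomes.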
